A study of Mus musculus with 18 samples.

Results

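The mitochondrial ribosomal protein genes are the nuclear genes whose products are carried into mitochondria and built, with RNA made from mitochondrial DNA, into the ribosome of that organelle. They were taken as every protein-coding row of the deposited tables whose symbol starts with Mrpl or Mrps followed by a digit, which gave 78 genes. All 78 were listed among 20257 genes in the striatum table and 20897 in the nigra table, and all 78 passed the filter on low counts, which left 19115 genes in striatum and 19686 in nigra. By the current structural assignment, 51 encode proteins of the large subunit and 26 of the small subunit. The remaining gene, Mrps36, keeps a ribosomal name although its product is now placed in the oxoglutarate dehydrogenase complex of the citric acid cycle. The symbol rule leaves out 5 further proteins of this ribosome that carry other names, namely Dap3, Ptcd3, Chchd1, Aurkaip1 and Gadd45gip1, which are described separately.

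The ribosome of mitochondria translates only the messages made from mitochondrial DNA, all of which encode core subunits of the respiratory chain and ATP synthase. Its small subunit reads the messenger RNA, and its large subunit forms the peptide bond and releases the chain next to the inner membrane, so that oxidative phosphorylation needs both this ribosome and a larger group of proteins made in the cytosol. Many of its proteins have a bacterial counterpart, and others are found only in mitochondria. Dopamine neurons have high energy needs, and 6-hydroxydopamine (6-OHDA), which they take up, oxidises cell components and harms mitochondria.

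Bulk RNA sequencing had been done on the striatum and the substantia nigra of wild-type C57BL6 mice, with 3 libraries per group and tissue and 18 in all. PBS mice received phosphate-buffered saline into the striatum and by intraperitoneal injection. The group labelled 6-OHDA had 4 µg of the toxin placed in the striatum and PBS by injection, and the group labelled TUG had the same toxin and TUG469, an agonist of the fatty acid receptor GPR40, at 10 mg/kg per day. The labels give 3 weeks for all groups and state neither age nor sex. The study asked how TUG469 acts in this model, and the comparisons below ask how the genes of the mitochondrial ribosome stood in each tissue after 6-OHDA, and after 6-OHDA with TUG469. The labels do not say whether libraries of one group came from separate mice, so p-values measure the spread between libraries. In bulk tissue, fewer cells of a type and less RNA per cell cannot be told apart.

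The libraries held 42242389 to 61992226 counts. The 78 members took 0.159% to 0.178% of the counts in striatum and 0.179% to 0.204% in nigra, and the lowest count of any member in any library was 221. The striatum libraries carried the markers of striatal projection neurons, with Adora2a at 303 ± 8.42 CPM (a gene's reads over the TMM-scaled library total; SD, n = 3) in PBS against 2.60 ± 1.64 in nigra, each scaled within its tissue. In nigra, the libraries labelled 6-OHDA did not have low dopamine markers. The PBS libraries held 57.5 ± 11.1 CPM of the dopamine transporter gene Slc6a3, where those labelled 6-OHDA held 54.6 ± 11.2 and those labelled TUG held 13.6 ± 2.76 (SD, n = 3 each). For Th, the enzyme that starts dopamine synthesis, the same groups held 33.1 ± 6.85, 51.4 ± 9.51 and 17.1 ± 4.16 CPM. Both genes were thus low under the label TUG and not under the label 6-OHDA, although the labels give both groups the toxin. The reason was not tested, nor whether labels were exchanged. Group names below are those of the labels.

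Promoters are shown for Mrps24, Mrpl58, Mrpl12 and Mrpl35, the members that came up in the most comparisons below (Mrps25, equal with Mrpl12 and Mrpl35 in that count, came later by name). Each is the RefSeq sequence on GRCm38.p6 from 250 bases before to 50 after the annotated start, read 5′ to 3′ on the gene's own strand, and capitals mark matches on either strand to CCGGAAG, a core bound by ETS factors such as GABP, or to AAGATGGC, bound by YY1. Gene spans are those of the RefSeq gene table. Mrps24 lies on the minus strand of chromosome 11 (gene 5703982 to 5707701, promoter chr11:5707652-5707951), Mrpl58 on the plus strand (115403724 to 115412674, chr11:115403502-115403801), Mrpl12 on the plus strand (120484637 to 120488754, chr11:120484387-120484686) and Mrpl35 on the minus strand of chromosome 6 (71812997 to 71823784, chr6:71823735-71824034).
Mrps24: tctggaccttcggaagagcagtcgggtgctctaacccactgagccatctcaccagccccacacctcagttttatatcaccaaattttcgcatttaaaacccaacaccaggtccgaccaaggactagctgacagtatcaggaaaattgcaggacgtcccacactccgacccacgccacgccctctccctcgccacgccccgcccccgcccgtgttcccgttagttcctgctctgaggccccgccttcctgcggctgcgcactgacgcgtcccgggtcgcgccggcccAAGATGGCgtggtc
Mrpl58: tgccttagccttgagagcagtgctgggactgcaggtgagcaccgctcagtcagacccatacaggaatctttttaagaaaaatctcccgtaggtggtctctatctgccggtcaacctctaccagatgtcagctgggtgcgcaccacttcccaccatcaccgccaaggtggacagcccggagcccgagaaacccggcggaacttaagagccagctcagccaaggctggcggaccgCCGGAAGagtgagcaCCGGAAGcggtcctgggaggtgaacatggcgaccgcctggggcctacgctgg
Mrpl12: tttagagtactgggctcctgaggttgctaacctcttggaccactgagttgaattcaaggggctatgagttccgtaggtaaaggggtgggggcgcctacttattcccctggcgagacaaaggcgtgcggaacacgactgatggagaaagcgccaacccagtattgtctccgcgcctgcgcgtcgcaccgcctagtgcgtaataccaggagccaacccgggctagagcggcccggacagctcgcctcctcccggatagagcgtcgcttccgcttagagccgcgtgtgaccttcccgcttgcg
Mrpl35: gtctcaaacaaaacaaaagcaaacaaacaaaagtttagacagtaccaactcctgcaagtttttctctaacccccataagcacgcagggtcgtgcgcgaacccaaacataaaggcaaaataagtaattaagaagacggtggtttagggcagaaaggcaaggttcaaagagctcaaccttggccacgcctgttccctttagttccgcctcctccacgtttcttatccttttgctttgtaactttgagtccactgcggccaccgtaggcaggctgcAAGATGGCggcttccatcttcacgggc
The YY1 letters lie after the annotated start of Mrps24 and of Mrpl35, and 2 ETS matches begin before the start that sets the window of Mrpl58, whose listed gene span begins further upstream, whereas neither motif was found in the window of Mrpl12. Over the 69 members with an entry in the promoter table, 26 held the ETS letters (37.7%), against 16.5% of the 13664 genes of both tables with an entry. The YY1 letters were in 12 members (17.4%) and in 4.50% of all promoters. A TATA box written TATAAA was in 5 members (7.25%) and in 9.76% of all promoters, and the SP letters GGGCGG were in 34 (49.3%) and in 62.5%. Both strands were searched for every motif, matches to different motifs overlapped in 2 members, and a match describes the sequence and not a bound site.

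Levels per unit of transcript length, in TPM (transcripts scaled to a common total), differed widely among genes whose products share 1 particle. In PBS libraries the median member stood at 39.0 TPM in striatum and 46.6 in nigra. The highest in striatum were Mrps21 at 133 ± 1.79 TPM, Mrpl42 at 117 ± 15.2, Mrpl52 at 98.2 ± 2.38 and Mrpl12 at 91.7 ± 5.80 (SD, n = 3 each), and the means of Mrpl52 and Mrpl12 differed by about the SD of Mrpl12. The same 4 led in nigra, with Mrpl42 first at 138 ± 5.11 TPM and Mrps21 next at 119 ± 3.72, a reversed order whose gap exceeded both SDs. Mrps21 and Mrpl12 have bacterial counterparts, Mrpl12 being the protein of the flexible stalk that takes up translation factors, while Mrpl42 and Mrpl52 are found only in mitochondria. The lowest in striatum were Mrpl17 at 7.45 ± 0.597 TPM, Mrpl1, which forms the stalk beside the exit site, at 8.73 ± 0.905, Mrpl15 at 12.3 ± 1.00 and Mrpl19 at 12.8 ± 0.454, of which Mrpl15 and Mrpl19 did not differ beyond their SD. In nigra the lowest were Mrpl17 at 9.23 ± 0.287 TPM, Mrpl1 at 12.5 ± 1.85, Mrpl19 at 14.1 ± 0.276 and Mrpl57 at 15.6 ± 1.08. Small subunit members had a median of 38.3 TPM in striatum and 42.8 in nigra, close to 39.8 and 46.8 for the large subunit.

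**Figure D1:**
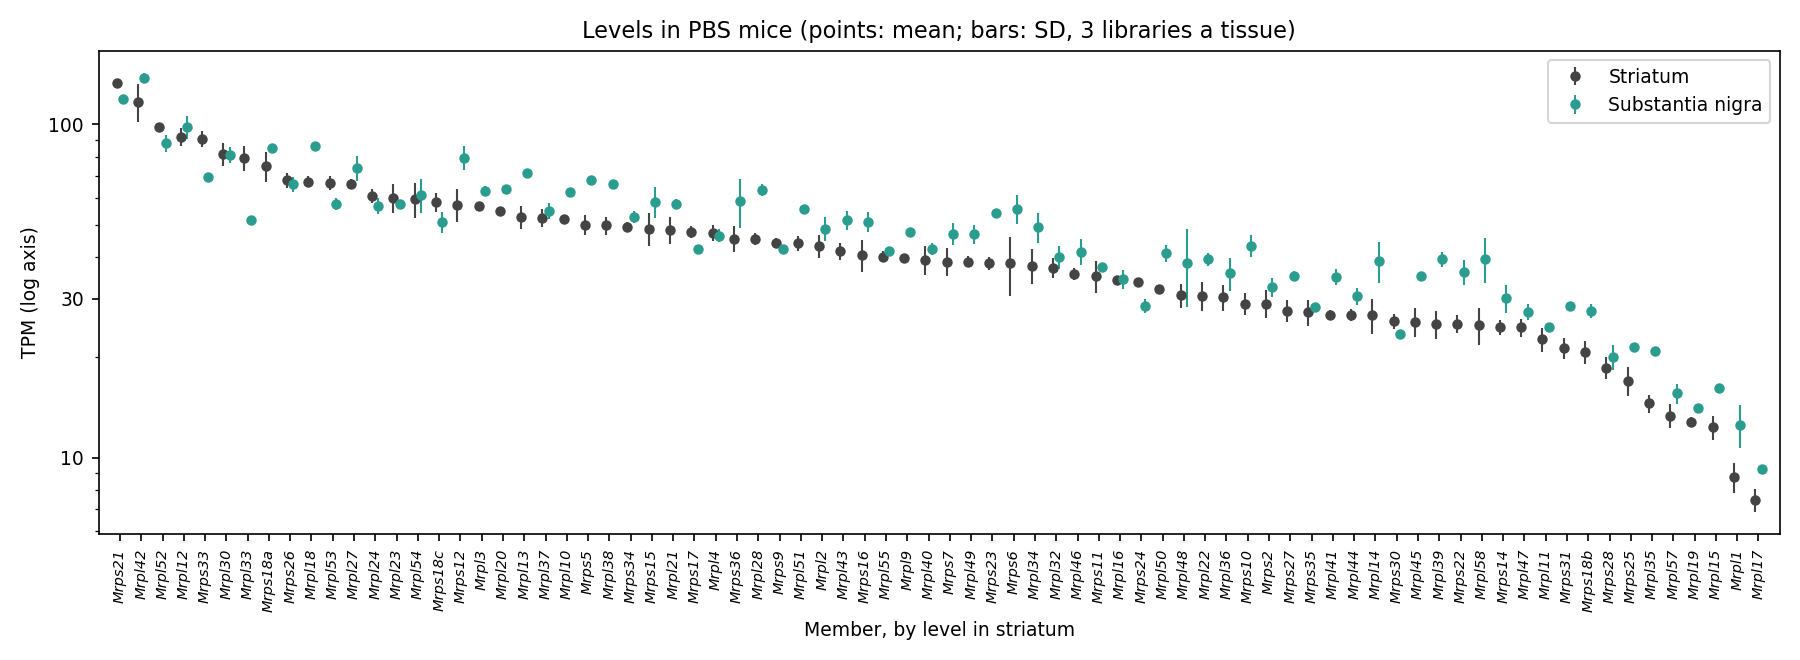
TPM on a log axis of all 78 members in PBS mice, ordered by the striatal mean, with the SD over 3 libraries as bars. The level falls from 133 TPM for Mrps21 to 7.45 for Mrpl17 in striatum, and the nigral points lie above the striatal ones for most members on this scale.

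The nigra of PBS mice was then compared with their striatum. On counts scaled by TMM, the median member differed by -0.041 on the log2 scale (all 18749 genes tested, 0.0070), and 27 of 78 members passed an adjusted p of 0.05 in edgeR's quasi-likelihood test, against a background of 55.8% of all genes. Of these, 20 fell and 7 rose, with backgrounds of 27.3% and 28.5%. On TPM the median of all genes moved to between 0.22 and 0.28, the member median to 0.24, and 63 members stood above 0 in place of 32. Mrpl55, Mrpl37, Mrpl16, Mrpl27 and Mrpl12, which were lower on counts, stood above 0 on TPM and lost their calls there. The member median also depended on single libraries, being -0.011 without nigral PBS 2 and -0.066 without striatal PBS 1.

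Mrpl33, a small protein of the large subunit with a bacterial counterpart, was at 14.7, 17.5 and 17.8 CPM in the striatal PBS libraries and at 8.70, 9.07 and 8.97 in the nigral ones, scaled over all 18 libraries as are the other CPM values between tissues. All 3 nigral values lay below all striatal values, and the fitted log2 change was -0.90 (SE 0.11, edgeR adjusted p = 5.7e-06). Mrps33, which has no bacterial counterpart, was at 40.8, 41.2 and 45.1 CPM in striatum and 26.1, 26.9 and 28.02 in nigra. Its groups did not overlap either, with a log2 change of -0.65 (SE 0.078, edgeR adjusted p = 3.1e-06). Other small subunit genes that fell were Mrps24 (-0.52), Mrps18c (-0.49), Mrps17 (-0.45), Mrps21 (-0.44), Mrps9 (-0.34) and Mrps26 (-0.33), and large subunit genes that fell by 0.4 or more were Mrpl53 (-0.50), Mrpl52 (-0.44) and Mrps30 (-0.41), the last a large subunit protein despite its name. With limma on every TPM scale tried, the calls of Mrps9, Mrps26, Mrpl52, Mrps30, Mrpl23, Mrpl24, Mrpl4 and Mrpl30 were lost, at log2 changes of -0.16 for Mrpl52 to -0.0054 for Mrpl30. Those of Mrps21 and Mrps24 were lost on 2 of the 3 TPM scales and that of Mrps18c on 1 (adjusted p = 0.0573). Mrpl30 also lost its call with same-numbered libraries of a group blocked across the tissues (edgeR adjusted p = 0.0528).

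Of the 7 that rose, Mrpl58 changed most. It encodes a peptide release factor that became part of the large subunit and frees chains from stalled ribosomes. Mrpl58 was at 21.1, 18.4 and 21.2 CPM in striatal PBS and 26.5, 25.8 and 27.1 in nigral PBS libraries, without overlap, and the log2 change was 0.39 (SE 0.083, edgeR adjusted p = 8.9e-04). The others were Mrpl35 (0.24), Mrps22 (0.24), Mrpl39 (0.22), Mrps23 (0.21), Mrpl28 (0.21) and Mrps10 (0.19). With the length and GC trend removed, the calls of Mrpl35, Mrps22, Mrpl39 and Mrps10 were lost (adjusted p = 0.121 to 0.269). Mrps22 and Mrps10 also lost theirs with same-numbered libraries of a group blocked across the tissues (edgeR adjusted p = 0.0536 and 0.0640). Mrps12 at the decoding centre (0.15), Mrps18b (0.14) and Mrps36 (0.090) did not pass.

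**Figure D2:**
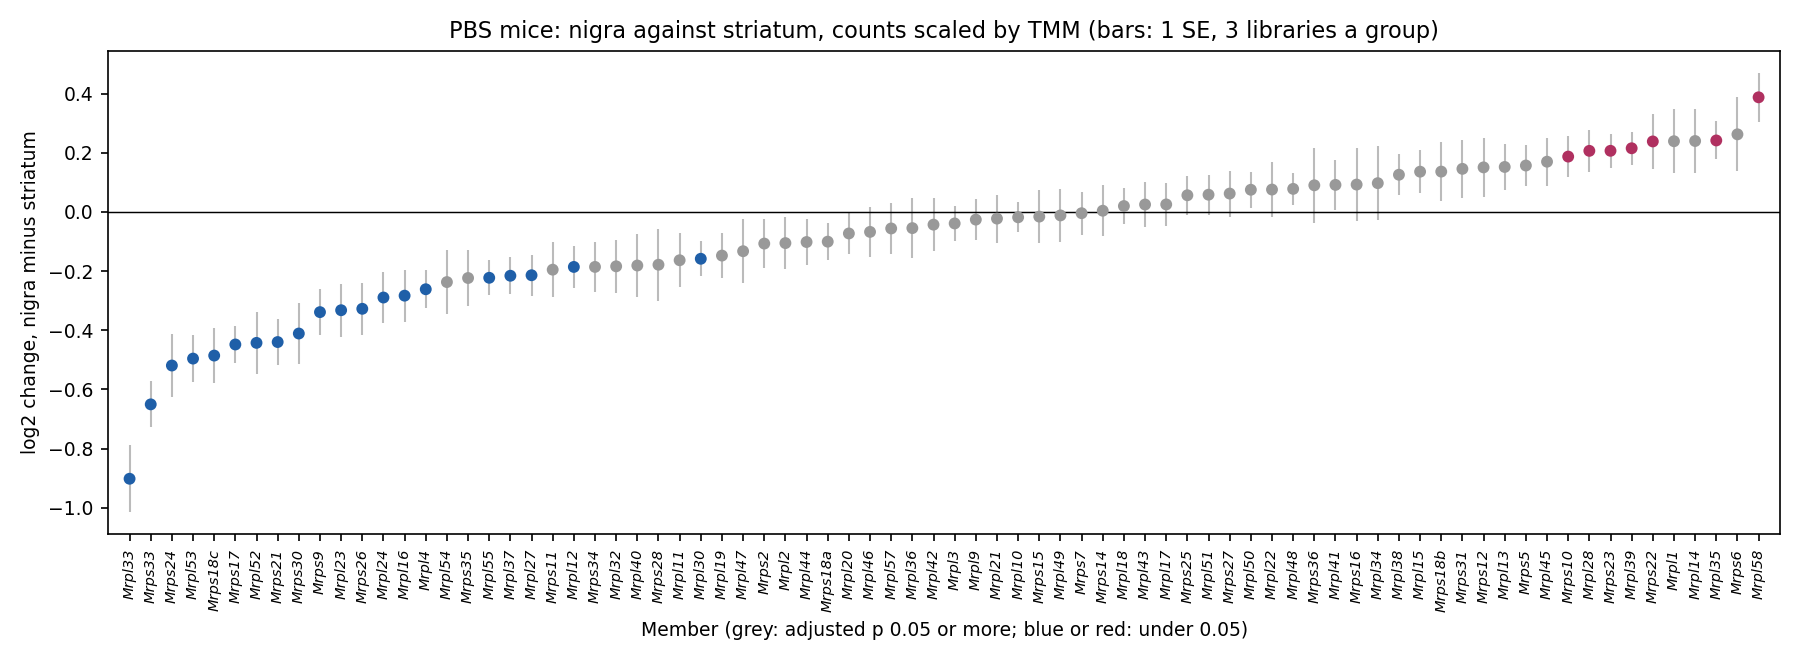
Fitted log2 change, nigra minus striatum, of each member in PBS mice on TMM-scaled counts, with 1 SE as bars. Blue and red points passed an adjusted p of 0.05; Mrpl33 is lowest at -0.90 and Mrpl58 highest at 0.39.

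The messages that this ribosome translates also differed between the tissues. All 13 protein-coding genes of mitochondrial DNA fell in nigra relative to striatum in edgeR, with a median log2 change of -0.88, COX2 at -0.91 and CYTB at -0.99. Nuclear genes of oxidative phosphorylation had a median of 0.0089 with 16 rising and 24 falling among 81, and cytosolic ribosomal proteins one of -0.29 with 62 of 80 falling. Among regulators of mitochondrial biogenesis, Ppargc1a rose (0.45) and Ppargc1b (-0.77), Gabpa (-0.42), Esrra (-0.35), Gabpb1 (-0.28), Yy1 (-0.23) and Nrf1 (-0.22) fell. Tfam, which packages mitochondrial DNA and starts its transcription, rose (0.32), while the polymerase gene Polg (-0.43) and the helicase gene Twnk (-0.64) fell. Twnk exons overlap those of Mrpl43 on the other strand, so both counts are uncertain.

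In striatum, no member passed in the libraries labelled 6-OHDA against PBS, where none of 19115 genes did (0%), but the members leaned one way. The log2 change was below 0 for 70 of 78 (background 50.6%) and above 0 for 8 (49.4%), the median was -0.084 against -0.0024 for all genes, and 8 members were lower at an unadjusted p under 0.05 (background 3.29%) and 0 higher (4.21%). In 14 members the 3 6-OHDA libraries lay below all 3 PBS libraries (background 5.68%), and in 0 above (6.1%). The median over members, as the difference from the PBS mean, was -0.026, -0.019 and 0.043 in PBS 1, 2 and 3 and -0.13, -0.042 and -0.054 in 6-OHDA 2, 3 and 4, so every 6-OHDA library lay below every PBS library. On TPM the member median was -0.025 to -0.026 with 31 members above 0, where the median of all genes moved to between 0.044 and 0.054. Without PBS 3, 21 members stood above 0, and without 6-OHDA 2 the median was -0.054.

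Mrps24 encodes the small subunit protein that corresponds to bacterial S3 and sits where messenger RNA enters. It was at 14.1, 14.8 and 14.7 CPM in the striatal PBS libraries and at 11.7, 10.9 and 8.16 in 6-OHDA 2, 3 and 4. The groups did not overlap and 6-OHDA 4 was lowest, with a log2 change of -0.50 (SE 0.13, edgeR adjusted p = 0.332). It passed in the authors' deposited table (adjusted p = 0.0387) and with DESeq2 (0.0394), the only 2 of 20 alternatives that did. Those 2 use the same libraries and gave nearly equal log2 changes. Mrpl12 of the stalk was at 37.9, 36.6 and 40.8 CPM in PBS and 31.5, 33.1 and 29.1 in 6-OHDA libraries. Its groups did not overlap, and the log2 change of -0.30 (SE 0.074) had an edgeR adjusted p of 0.331.

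Mrps26 (-0.30) and Mrps34 (-0.21), small subunit proteins found only in mitochondria, had the next smallest p. The highest positive values were those of Mrps25 (0.13), Mrpl22 (0.096), Mrpl57 (0.078) and Mrpl58 (0.077), and Mrps12 (-0.12), Mrps18b (0.075) and Mrps36 (-0.0073) were close to or smaller than their SE of 0.11 to 0.12. The small subunit had a median of -0.094 with 23 of 26 below 0, and the large subunit -0.083 with 46 of 51. Members with a bacterial counterpart had a median of -0.083 and those found only in mitochondria -0.086.

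**Figure D3:**
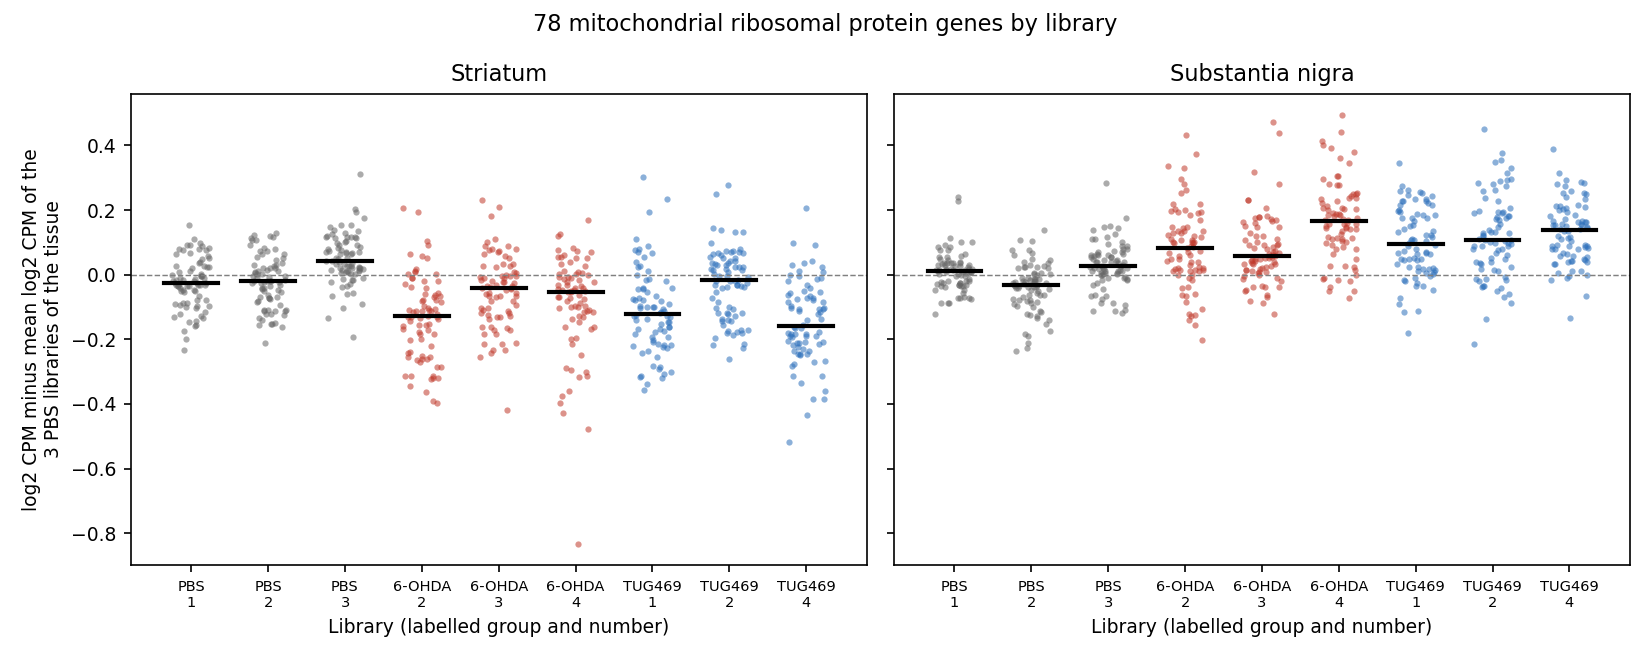
Log2 CPM of each of the 78 members minus its mean in the 3 PBS libraries of the tissue (points), with the median over members as a black line, for all 18 libraries. The medians of the libraries labelled 6-OHDA lie at -0.13 to -0.042 in striatum and at 0.057 to 0.16 in nigra.

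Related gene groups of striatum are given beside the members. The 5 ribosomal proteins with other symbols had a median of -0.16, with Chchd1 at -0.34 (SE 0.087, edgeR adjusted p = 0.335), Gadd45gip1 at -0.18 and Aurkaip1 at -0.16. Nuclear oxidative phosphorylation genes had a median of -0.18 with 78 of 81 below 0, and cytosolic ribosomal proteins one of -0.14 with 78 of 80 below 0. For the 13 mitochondrial DNA messages, library medians overlapped, at -0.18 to 0.086 from the PBS mean in PBS and -0.13 to 0.0085 in 6-OHDA. The 23 ribosome assembly factors (0.0045), 16 translation factors (-0.0045) and 23 aminoacyl-tRNA synthetase and related genes (-0.0074) had medians near 0. Markers of ependymal cells, the ciliated lining of the ventricles, summed over 9 of 9 genes to 17.3 to 32.1 CPM in PBS, 51.5 to 66.0 in 6-OHDA and 32.9 to 55.3 in TUG libraries. Choroid plexus markers, of which 5 of 8 were tested, summed to 1674 CPM in 6-OHDA 2 and at most 168 in the other striatal libraries. Blood markers (4 of 5 tested) ran from 8.22 to 27.96 CPM in PBS, 2.60 to 13.2 in 6-OHDA and 0.619 to 8.96 in TUG libraries. The part of these cells in the member values was not tested.

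In nigra the members leaned the other way. None passed in the libraries labelled 6-OHDA against PBS, where 0.00508% of all genes did, but the log2 change was above 0 for 69 of 78 (background 49.6%) and below 0 for 9 (50.4%), with a median of 0.11 against -0.0016 for all genes. At an unadjusted p under 0.05, 14 members were higher (background 6.29%) and 0 lower (8.03%). In 24 the groups did not overlap with 6-OHDA higher (background 9.34%), and in 0 with it lower (10.7%). By library the member median was 0.011, -0.032 and 0.027 in PBS 1, 2 and 3 and 0.084, 0.057 and 0.16 in 6-OHDA 2, 3 and 4, again without overlap. On TPM the median was 0.055 to 0.056 with 58 members above 0, where all genes moved to between -0.033 and -0.042.

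Mrps24 was at 10.7, 11.3 and 11.9 CPM in the nigral PBS libraries and at 15.2, 14.0 and 15.9 in 6-OHDA 2, 3 and 4. All 6-OHDA values lay above all PBS values, the reverse of striatum, with a log2 change of 0.41 (SE 0.077, edgeR adjusted p = 0.170). Mrpl34, a short protein of the large subunit, was at 12.7, 10.9 and 13.7 CPM in PBS and 16.0, 16.7 and 16.1 in 6-OHDA libraries, and Mrpl36, another, at 13.9, 11.04 and 14.4 and then 15.8, 18.1 and 17.7. Neither pair of groups overlapped, and both log2 changes were 0.39 (SE 0.090 and 0.11, edgeR adjusted p = 0.171 and 0.208). These 3 genes passed in the authors' deposited table, with adjusted p of 0.0020, 0.0122 and 0.0392, and with DESeq2. Those 2 use the same libraries and gave nearly equal log2 changes, so they are not separate support. For each gene they were the only 2 of 20 alternatives that passed, and the share of all genes they called was not computed.

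Mrps21 followed at 0.26 and Mrpl12 at 0.24 (SE 0.075, edgeR adjusted p = 0.233). The values for Mrpl12 were 36.6, 34.6 and 41.6 CPM in PBS and 43.0, 44.0 and 46.4 in 6-OHDA libraries, which did not overlap. Below 0, the smallest p belonged to Mrpl32 (-0.072), Mrpl49 (-0.053), Mrps9 (-0.046) and Mrpl1 (-0.054), all smaller than their SE of 0.079 to 0.10. Mrpl58 (0.12), Mrps18b (0.12), Mrps12 (0.070) and Mrps36 (0.25, SE 0.13) lay above 0. The small subunit had a median of 0.13 with 24 of 26 above 0, and the large subunit 0.091 with 44 of 51.

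Transcript length was set beside the nigral values. The 36 members with a median annotated transcript under 1000 bases had a median of 0.13 with 35 above 0, and the 42 longer ones 0.074 with 34 above 0. Across the 78 members, Spearman's rho between transcript length and log2 change was -0.37, a description over genes that share the same libraries. Over the 15469 genes with a known length rho was -0.28, but these are 78.6% of the genes tested, too few for a check over all genes, which is void. A fit with the length and GC trend of these genes removed gave a nigral member median of 0.10, with 68 members above 0. The median of all genes tested in it was 0.016. The medians of short and long members in striatum were -0.086 and -0.073, and rho was 0.068, beside 0.12 over 15087 genes.

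Nuclear oxidative phosphorylation genes had a nigral median of 0.17 with 79 of 81 above 0, cytosolic ribosomal proteins 0.085 with 66 of 80, and the 13 mitochondrial DNA messages 0.098 with all 13 above 0. By library, the medians of these messages overlapped, at -0.061 to 0.064 from the PBS mean in PBS and -0.023 to 0.20 in 6-OHDA. Those of cytosolic ribosomal proteins did too, at -0.032 to 0.046 and 0.020 to 0.15, whereas those of nuclear oxidative phosphorylation genes did not. The 5 ribosomal proteins with other symbols were all above 0, among them Gadd45gip1 (0.16) and Aurkaip1 (0.15). Of the assembly factors, Noa1 (0.26) and the rRNA methyltransferases Mrm1 (0.23) and Mrm3 (0.20) had the smallest p, and of the translation factors the elongation factor gene Tufm (0.19). None of these passed in edgeR. Dopamine neuron markers (10 of 10 tested) summed to 426 to 476 CPM in PBS, 487 to 644 in 6-OHDA and 260 to 405 in TUG libraries, and blood markers (5 of 5) to 23.3 to 60.6, 4.30 to 20.4 and 2.05 to 14.1 CPM. The dopamine marker sums thus lay above the PBS range in 6-OHDA libraries and below it in TUG libraries. Neuron markers (8 of 8) summed to 5377 to 5743 CPM in PBS, 5574 to 6441 in 6-OHDA and 5452 to 5805 in TUG libraries. Their median difference from the PBS mean was -0.020 to 0.085 on the log2 scale in PBS and 0.094 to 0.27 in 6-OHDA libraries, without overlap. Ependymal markers (9 of 9) summed to 75.04 to 102 CPM in PBS, 40.6 to 81.8 in 6-OHDA and 46.9 to 85.7 in TUG libraries, and astrocyte markers (6 of 6) to 2916 to 3064, 2690 to 2987 and 2597 to 2714 CPM. The part of these cells in the member values was not tested.

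The difference between tissues in the change after 6-OHDA, nigra minus striatum, was tested gene by gene in 1 fit of all 18 libraries. The opposite leans of the members as a set were not tested. Of 18749 genes, 0.155% passed, and among the 78 members Mrps24 and Mrpl12 did, both with a higher change in nigra. The difference for Mrps24 was 0.92 on the log2 scale (SE 0.15, edgeR adjusted p = 0.0239), and every 6-OHDA library lay below every PBS library in striatum and above in nigra. The difference for Mrpl12 was 0.54 (SE 0.10, edgeR adjusted p = 0.0493), with the same order of libraries. The call for Mrps24 was lost without striatal PBS 1 (adjusted p = 0.0516), nigral PBS 1 (0.0724), nigral PBS 2 (0.0738) or nigral 6-OHDA 4 (0.0841), and with limma on TPM (0.0506 and 0.0610 with pseudocounts of 1 and 0.1). The call for Mrpl12 held without striatal 6-OHDA 3, nigral PBS 3 or nigral 6-OHDA 2, and was lost without each of the other libraries in turn, with adjusted p up to 0.166. It was also lost with same-numbered libraries of a group blocked across the tissues (edgeR adjusted p = 0.0511).

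The difference was above 0 for 75 of 78 members (background 47.5%) and below 0 for 3 (52.5%), with a median of 0.17 against -0.013 for all genes, and 18 were higher at an unadjusted p under 0.05 (background 6.01%) and 0 lower (6.15%). On TPM 61 stood above 0 with a median of 0.064 to 0.066, where all genes moved to between -0.086 and -0.11. Mrpl46 (0.43, SE 0.12, edgeR adjusted p = 0.151) and Mrpl30 (0.29, SE 0.083, edgeR adjusted p = 0.158) came next. The 3 below 0, Mrpl1 (-0.018), Mrpl57 (-0.014) and Mrps25 (-0.0099), were small beside their SE of 0.094 to 0.15. Mrps36 (0.25), Mrps12 (0.19), Mrps18b (0.041) and Mrpl58 (0.036) did not pass. In terms of sign, 61 members were below 0 in striatum and above 0 in nigra, 0 the reverse, 8 above 0 in both and 9 below 0 in both.

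**Figure D4:**
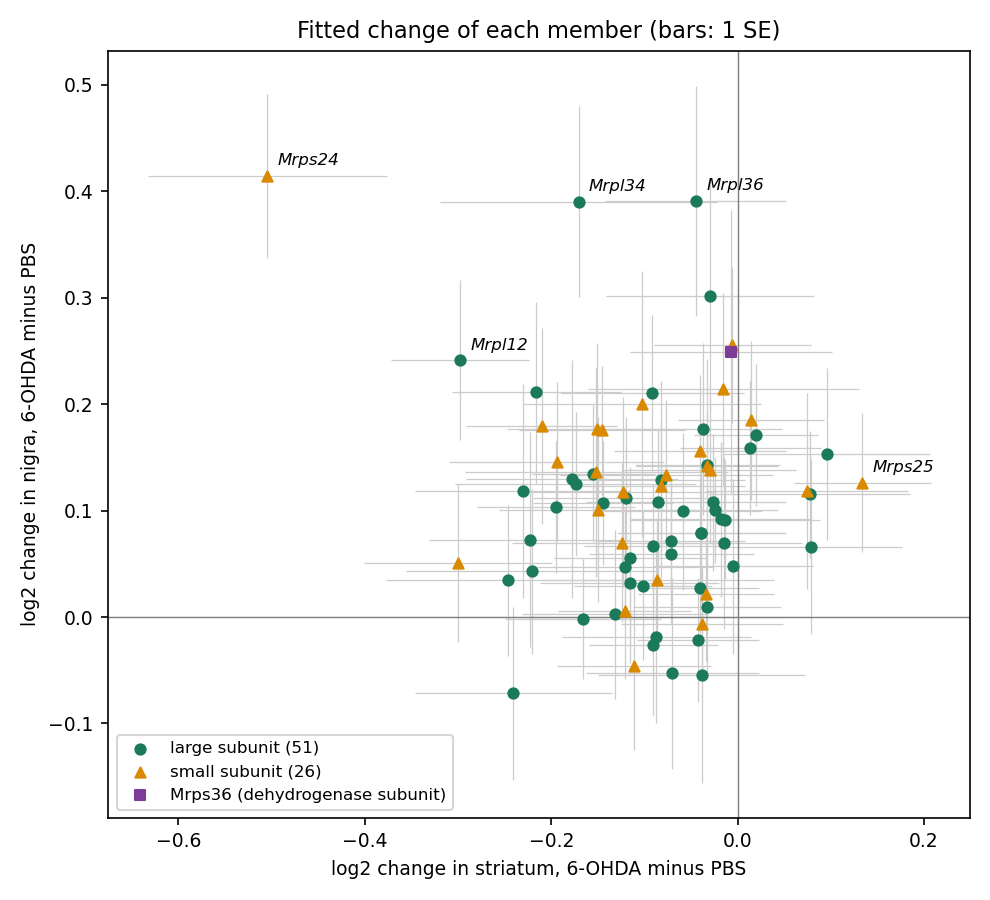
Fitted log2 change after 6-OHDA against PBS of each member in striatum (horizontal) and nigra (vertical), with 1 SE as bars and symbols for the subunits. Most of the 78 points, 61, lie at the upper left, lower in striatum and higher in nigra, and Mrps24 lies farthest into it at -0.50 and 0.41.

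Reads could be shared with neighbours for some of these genes. Exons of 33 members overlap another gene of the GENCODE annotation, 28 on the opposite strand and 8 on the same strand, and whether strand was used in counting is not stated in the labels or headers. Mrps24 shares 226 exon bases with Urgcp on the same strand, so its counts are uncertain to that extent. Urgcp itself stood at 65.6, 65.3 and 62.6 CPM in striatal PBS and 54.7, 59.8 and 64.1 in 6-OHDA libraries, and its difference between tissues was 0.080 (SE 0.11, edgeR adjusted p = 0.816). Mrpl12 shares 200 bases with the noncoding Gm16755 on the other strand. Other named members share more. On the same strand, Mrpl33 shares 261 bases with Gm43809, Mrpl53 695 with Gm42688, Mrps34 763 with Nme3 and Mrps18c 250 with Gm43511. On the other strand, Mrps25 shares 4590 bases with Nr2c2, Mrps34 1309 with Mapk8ip3 and Mrpl48 708 with Rab6a. Also on that strand, Mrps18b shares 638 with Gm16279, Mrps30 623 with B430218F22Rik, Mrpl24 594 with Rrnad1 and Mrpl10 240 with Gm11574. Their counts are uncertain in the same way. Mrpl36 starts opposite Ndufs6, a subunit gene of complex I, with starts that overlap by 29 bases. Ndufs6 passed in the test between tissues (0.51, SE 0.096, edgeR adjusted p = 0.0493), where Mrpl36 was at 0.43.

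In the same test, 8 of 81 nuclear oxidative phosphorylation genes passed with a median of 0.36 over all 81, among them Cox5b (0.88), Cox5a (0.70) and Cox8a (0.62) of complex IV. Cytosolic ribosomal proteins had a median of 0.21 with 0 passing, and 4 of the 5 ribosomal proteins with other symbols were above 0, Chchd1 highest at 0.38. Slirp, which stabilises mitochondrial messages, was at 0.52 (SE 0.15, edgeR adjusted p = 0.151). Regulators of biogenesis had a median of -0.098, with Esrra at 0.38 and Pprc1 at -0.28, neither passing. The 13 mitochondrial DNA messages had a median of 0.19 with 12 above 0. Ependymal markers had a median of -2.63 with all 9 below 0 and 1 passing, and their part in the member values was not tested.

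TUG469 given with the toxin was compared with the toxin alone, a comparison that shares its 6-OHDA libraries with those against PBS. In striatum no member passed, where 0.00523% of genes did, and the median was -0.0044 with 36 members above 0 (all genes 0.00013, background 50%). Mrps24 was at 13.3, 14.0 and 12.5 CPM in TUG 1, 2 and 4, above all 3 libraries labelled 6-OHDA, with a log2 change of 0.38 (SE 0.13, edgeR adjusted p = 0.584). Mrps34 (0.23), Mrps26 (0.21) and Mrpl52 (0.21) followed. Mrps25 (-0.22, SE 0.073), Mrpl44 (-0.19), Mrpl51 (-0.15) and Mrpl22 (-0.21) lay below 0, and Mrpl12 was at 0.027 with 30.9, 32.8 and 31.8 CPM, within the range of the 6-OHDA libraries. Mrps18b was at 0.19, Mrpl58 at 0.036, Mrps12 at -0.014 and Mrps36 at -0.095. At an unadjusted p under 0.05 there were 2 members higher (background 3.46%) and 2 lower (4.03%), and groups did not overlap for 5 higher (background 7.11%) and 8 lower (7.78%). The median was 0.030 without TUG 4 and -0.047 without TUG 2.

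In nigra the median was 0.016 (all genes 0.0031), with 46 members above 0 (background 50.9%) and 32 below (49.1%), and no member passed, where 0.00508% of genes did. Mrpl35 of the large subunit was at 30.6, 29.4 and 30.5 CPM in 6-OHDA and 26.7, 26.1 and 27.5 in TUG libraries. The groups did not overlap, and the log2 change was -0.17 (SE 0.056, edgeR adjusted p = 0.529). Mrpl58 was at 30.7, 30.05 and 30.03 CPM in 6-OHDA and 31.5, 35.6 and 34.1 in TUG libraries, also without overlap, with 0.16 (SE 0.060, edgeR adjusted p = 0.564). Mrpl2 (0.17), Mrps9 (0.16) and Mrpl10 (0.13) lay above 0 and Mrpl36 (-0.25), Mrpl34 (-0.18), Mrps24 (-0.15) and Mrpl12 (-0.074) below, with Mrps18b at 0.065, Mrps12 at -0.060 and Mrps36 at -0.087. At an unadjusted p under 0.05, 3 members were higher (background 3.86%) and 2 lower (4.35%). Groups did not overlap for 3 members higher (background 7.25%) and 6 lower (7.19%), and the median was -0.0055 without 6-OHDA 3. The difference between tissues for TUG469 passed for no gene (0%) and had a median of 0.025 over the members, 47 of them above 0 (background 50.7%), with Mrps24 at -0.53 (SE 0.15, unadjusted p = 0.0025, edgeR adjusted p = 1.00), Mrpl36 at -0.29, Mrps28 at -0.21, Mrpl52 at -0.19, Mrpl44 at 0.25, Mrpl21 at 0.20, Mrps25 at 0.16 and Mrpl10 at 0.14. By direction, 2 members of 78 had an unadjusted p under 0.05, Mrps24 lower and Mrpl44 higher, against backgrounds of 2.07% and 1.66%.

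TUG469-treated mice were also set against PBS, which shares its PBS libraries with the comparison of 6-OHDA alone. In striatum 69 of 78 members were below 0 (background 49.7%) and 9 above 0 (50.3%), with a median of -0.088 for the toxin with TUG469 and -0.084 for the toxin alone, and no gene passed (0%). Mrpl12 was at -0.27 (SE 0.074, edgeR adjusted p = 0.242), Mrpl51 at -0.25, Mrps22 at -0.26 and Mrpl35 at -0.24, while Mrps24 was at -0.13. Above 0, Mrps18b was at 0.26 (SE 0.11), with 10.5, 9.08 and 9.92 CPM in PBS and 12.1, 11.9 and 11.3 in TUG libraries, which did not overlap, and Mrpl57 was at 0.12, Mrpl58 at 0.11 and Mrpl48 at 0.064. Mrps12 was at -0.14 and Mrps36 at -0.10. Groups did not overlap for 19 members lower (background 9.47%) and 1 higher (9.07%), and at an unadjusted p under 0.05 there were 11 lower (6.17%) and 1 higher (6.36%). The median was -0.054 without PBS 3, and on TPM 29 members stood above 0 with a median of -0.024 to -0.025, where all genes moved to between 0.059 and 0.076.

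In nigra 1.85% of genes passed in this comparison but no member did, while 69 of 78 members were above 0 (background 51.6%) and 9 below (48.4%), with a median of 0.12 (all genes 0.0087), beside 0.11 for the toxin alone. At an unadjusted p under 0.05, 20 members were higher (background 8.69%) and 1 lower (11%), and groups did not overlap for 37 higher (11.7%) and 1 lower (12.3%). Mrpl58 had the smallest p, at 0.27 (SE 0.060, edgeR adjusted p = 0.0524). It passed in 3 of 20 alternatives. They were the authors' deposited table (0.0045), DESeq2 (0.0047) and the fit with the length and GC trend removed (edgeR adjusted p = 0.0420). Mrpl2, a core protein near the peptidyl transferase centre, was at 0.29 (SE 0.076), Mrpl55 at 0.23, Mrps10 at 0.21, Mrps24 at 0.26, Mrps18b at 0.18, Mrpl12 at 0.17, Mrps36 at 0.16 and Mrps12 at 0.010. The 1 lower member was Mrpl35 (-0.18, SE 0.056, edgeR adjusted p = 0.124), followed by Mrpl41 (-0.066), Mrpl50 (-0.041) and Mrpl51 (-0.038). On TPM the median was 0.063 to 0.064 with 61 members above 0, where all genes moved to between -0.035 and -0.046.

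**Figure D5:**
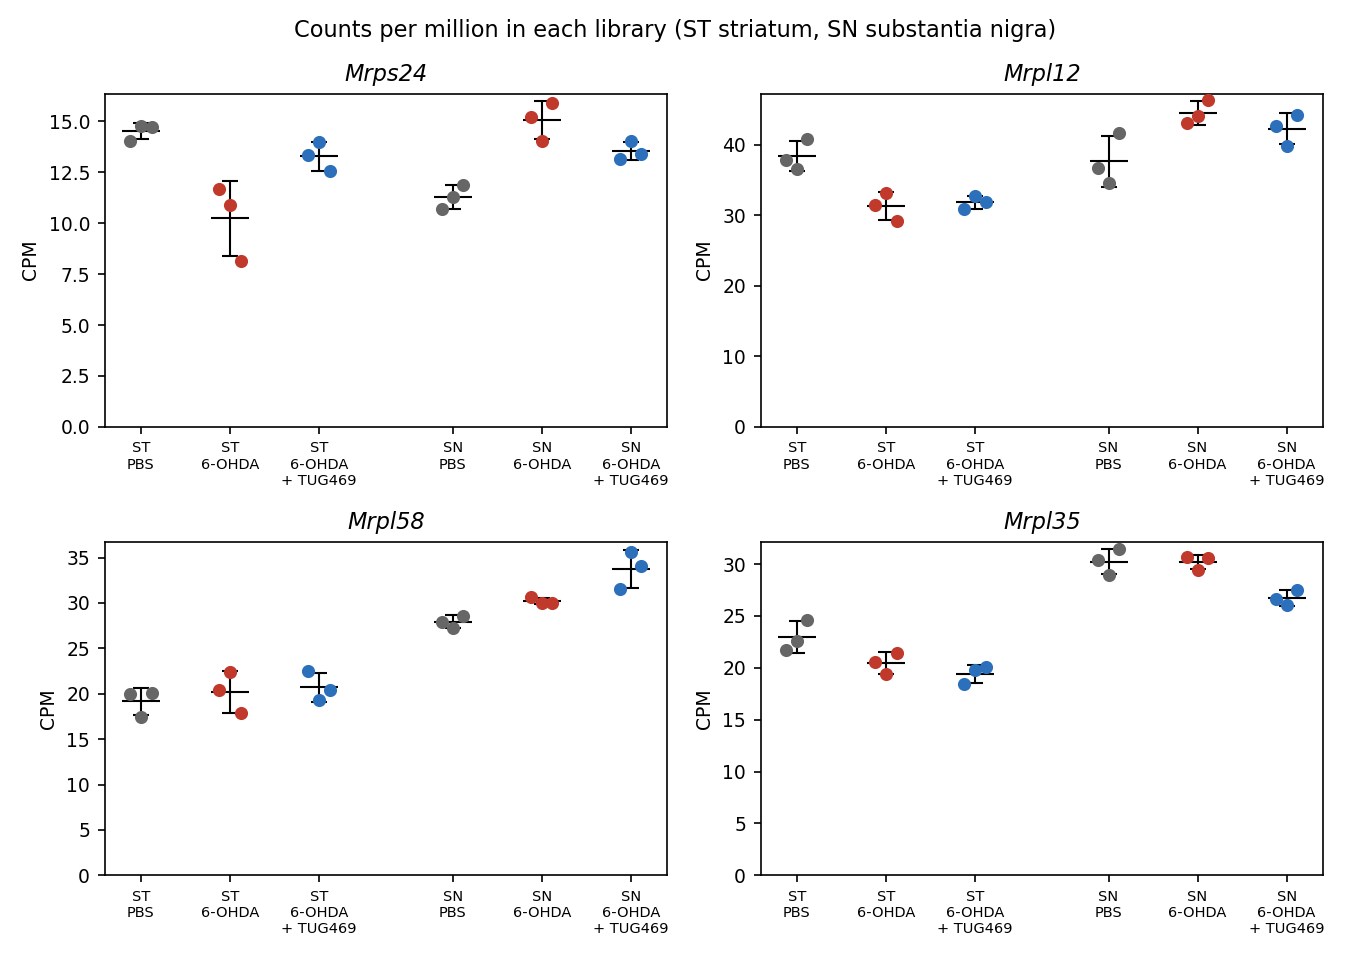
CPM of Mrps24, Mrpl12, Mrpl58 and Mrpl35 in each library, with the mean and SD of 3 libraries as a bar and whiskers, on axes that start at 0. Mrps24 is lower in the striatal and higher in the nigral libraries labelled 6-OHDA, with means of 14.5 and 10.2 CPM in striatum and 11.3 and 15.04 in nigra for PBS and 6-OHDA.

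All 13 messages of mitochondrial DNA were above 0 in nigra of TUG469-treated mice against PBS, with a median of 0.21, and ND1 at 0.31 and ND4L at 0.23 among the smallest p. Nuclear oxidative phosphorylation genes had a median of 0.15 with 79 of 81 above 0, and cytosolic ribosomal proteins 0.12 with 76 of 80. The 5 ribosomal proteins with other symbols had a median of 0.12, and of the synthetases Aars2 (0.22), Gars (0.18) and Sars2 (0.23) had the smallest p. Gabpa, which encodes the DNA-binding part of GABP, was at -0.22 (SE 0.056, edgeR adjusted p = 0.0786). None of these genes passed in edgeR.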

How the data were processed

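Poly(A) RNA from striatum and substantia nigra had been sequenced after TruSeq stranded library preparation, per the labels' protocols. The submitters' processing notes name FastQC 0.11.7, Trim Galore 0.38, STAR 2.7.3a, Cufflinks and GRCm38. Whether strand was used in counting is stated in neither labels nor headers. Each tissue's deposited table holds gene counts, FPKM and TPM by library, for genes with a count in all 9 libraries. The authors' deposited table also holds fold changes, p-values, log2 values and a test score for their own comparisons. The authors' columns of means over libraries were not used, and columns of other series numbered 0.

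Counts of each tissue's 9 libraries were fitted with edgeR 4.0.16 in R 4.3.3 (TMM, filterByExpr with a minimum count of 10 and total of 15, quasi-likelihood test, Benjamini-Hochberg adjustment over all genes tested, threshold 0.05). A fit of all 18 libraries gave the differences between tissues. CPM are TMM-scaled. Within each tissue the comparisons share libraries. TPM levels are the authors' values. Alternatives used DESeq2 1.42.0, limma 3.58.1 on log2(TPM + 1) and log2(TPM + 0.1), other scalings and filters, a fit with a smooth trend of length and GC removed, the replicate number as a block, and each library left out in turn. The block was the number alone within a tissue, and the labelled group with the number in the fit of both tissues.

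Members named in a comparison are those that passed and the 4 with the smallest p in each direction, with Mrps24, Mrpl12, Mrps12, Mrps18b, Mrps36 and Mrpl58 added throughout. From other gene lists, genes that passed, or up to 3 with the smallest p, are named. Members and lists were chosen with earlier results of these data known. Libraries of the same number were not treated as pairs in the main fits. Promoters and overlaps come from RefSeq (GRCm38.p6) and GENCODE M21. The edgeR script was tested on simulated data.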

Additional observations from a re-analysis of the deposited data

Results flagged for a closer look

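Mrps24 differed between tissues in its change after 6-OHDA against PBS, by 0.92 on the log2 scale (SE 0.15, edgeR adjusted p = 0.0239), with every 6-OHDA library below PBS in striatum and above it in nigra. Mrpl12 differed likewise, by 0.54 (SE 0.10, edgeR adjusted p = 0.0493), a call lost with same-numbered libraries blocked across the tissues (edgeR adjusted p = 0.0511). The call for Mrps24 held in 21 of 27 alternatives, and in 14 of 18 with a library left out. That for Mrpl12 held in 6 of 27, and in 3 of 18 with a library left out.

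The median over the 78 members was -0.084 in striatum and 0.11 in nigra for 6-OHDA against PBS, and -0.088 and 0.12 for 6-OHDA with TUG469 against PBS. By library, all 3 medians of each toxin group lay below the PBS mean in striatum and above it in nigra, although striatal TUG 2 (-0.017) lay within the range of the PBS libraries. The differences between these medians were not tested, and both comparisons of a tissue share its PBS libraries.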

How the results depend on the processing

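With a library left out, 1544 values of single members kept their direction and side of the threshold. A further 42 lost the call with the sign kept, and 43 changed sign. Under the other alternatives these counts were 1158, 46 and 58, and 27 gained a call. Each value was counted once. Among those that changed sign, Mrpl12, Mrpl16, Mrpl27, Mrpl37 and Mrpl55 between tissues also lost their calls on every TPM scale. The number of members past the threshold was 2 for the difference between tissues after 6-OHDA. It was 1 with the length and GC trend removed, without the filter, with the replicate block and with limma-trend on TPM, 0 with limma on either TPM scale, and 0 to 2 with a library left out. Mrps24 passed in 21 of 27 alternatives and Mrpl12 in 6. The block by number within a tissue changed the sign of Mrps12 for TUG against PBS in nigra (-0.023) and against 6-OHDA in striatum (0.046). Across tissues, the block by group and number removed the call of Mrpl12 for the difference after 6-OHDA (edgeR adjusted p = 0.0511). It also removed, between tissues in PBS mice, those of Mrpl30 (0.0528), Mrps10 (0.0640) and Mrps22 (0.0536). Deviations of same-numbered libraries of the 2 tissues correlated at -0.018 to 0.28, over 0.1 in 7 of 9 pairs, and 16 of 18 libraries correlated best with their own number. The labels do not say whether a shared number marks the same mouse, and the main fits treat the libraries as unpaired. Between tissues in PBS mice, 46, 50 and 52 members passed on TPM in place of 27, and 22 to 29 with a library left out. The shares of all genes passing in these alternatives were not computed. The background of 55.8% belongs to the main fit on counts. DESeq2 and the authors' deposited table each called 1 member for 6-OHDA against PBS in striatum and 3 in nigra. Each called 5 for TUG against PBS in nigra, where removing the trend gave 1 and edgeR 0. Leaving out a library gave 0 in each of these comparisons. The shares of all genes called by DESeq2 and the deposited table were not computed, so these counts have no background.

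The member median on TPM was 0.24 between tissues in PBS mice. For 6-OHDA it was -0.025 to -0.026 in striatum, 0.055 to 0.056 in nigra and 0.064 to 0.066 for their difference, and for TUG against PBS -0.024 to -0.025 in striatum and 0.063 to 0.064 in nigra, where upper quartile scaling gave 0.16. The length and GC trend was fitted only to genes with a known length. With it removed, the member median for 6-OHDA was -0.091 in striatum, 0.10 in nigra and 0.18 for their difference. With a library left out, the median ranged from -0.066 to -0.011 between tissues. For 6-OHDA it ranged from -0.10 to -0.054 in striatum, 0.073 to 0.12 in nigra and 0.14 to 0.20 for the difference. For TUG against PBS it ranged from -0.13 to -0.054 in striatum and 0.10 to 0.14 in nigra, for TUG against 6-OHDA from -0.047 to 0.030 and -0.0055 to 0.038, and for that difference from 0.00018 to 0.064.

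Signs that changed on TPM, with pseudocounts of 0.1 and 1, were between tissues those of Mrpl12 (0.096 and 0.095), Mrpl16 (0.00059 and 0.00063), Mrpl27 (0.15 in both), Mrpl37 (0.070 and 0.068) and Mrpl55 (0.058 and 0.056). After 6-OHDA they were those of Mrps36 in striatum (0.055 and 0.054), Mrpl58 in nigra (-0.024 and -0.023) and, for the difference, Mrpl58 (-0.19 and -0.18) and Mrps18b (-0.050 and -0.047). With TUG they were those of Mrps12 (0.056 and 0.055 against 6-OHDA in striatum, -0.011 against PBS in nigra), Mrpl48 (-0.029 and -0.027 against PBS in striatum) and Mrps36 (-0.016 for the difference). With the trend removed, signs changed after 6-OHDA for Mrpl1 (0.027), Mrpl32 (0.0024) and Mrps12 (-0.038) in nigra and for Mrpl1 (0.079), Mrpl57 (0.079) and Mrps25 (0.17) in the difference. With TUG they changed for Mrpl12 (-0.0016) against 6-OHDA in striatum, Mrps12 (0.0073) in that difference, and Mrpl51 (0.062) and Mrps12 (-0.096) against PBS in nigra. With upper quartile factors they changed for Mrpl1 (0.010), Mrpl57 (0.012) and Mrps25 (0.017) in the difference after 6-OHDA, Mrps36 (-0.011) in that for TUG, Mrpl50 (0.0017) and Mrpl51 (0.0041) for TUG against PBS in nigra, and Mrps12 (0.0068) for TUG against 6-OHDA in striatum. The cause was not tested.

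With a library left out, the sign of these values varied, between the lowest and the highest given. Between tissues it was that of Mrps36 (-0.065 to 0.19). After 6-OHDA it was that of Mrpl58 (-0.0047 to 0.16) and Mrps36 (-0.062 to 0.052) in striatum, of Mrpl1 (-0.12 to 0.078) and Mrps9 (-0.11 to 0.025) in nigra, and of Mrpl1 (-0.11 to 0.11), Mrpl57 (-0.087 to 0.054), Mrpl58 (-0.029 to 0.13), Mrps18b (-0.046 to 0.12) and Mrps25 (-0.070 to 0.066) in the difference. For TUG against PBS in nigra it was that of Mrpl50 (-0.081 to 0.015) and Mrps12 (-0.041 to 0.041). For TUG against 6-OHDA it was that of Mrpl12 (-0.015 to 0.081), Mrpl58 (-0.040 to 0.13) and Mrps12 (-0.099 to 0.10) in striatum, of Mrps18b (-0.0083 to 0.15) and Mrps36 (-0.15 to 0.0096) in nigra, and of Mrps12 (-0.15 to 0.052) and Mrps36 (-0.076 to 0.10) in the difference.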

Other observations

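Members with short transcripts held most of the genes that fell in nigra relative to striatum in PBS mice. Of the 36 under 1000 bases, 13 fell and 1 rose, and of the 42 longer ones 7 fell and 6 rose. The backgrounds over all genes tested, short and long together, were 27.3% for falling and 28.5% for rising. The medians of short and long members were -0.10 and -0.0082 on the log2 scale. In that comparison Spearman's rho between transcript length and log2 change was 0.23 over the members and 0.078 over the 14917 genes with a known length. In the difference between tissues after 6-OHDA, all 36 short members were above 0 with a median of 0.22, and 39 of the 42 longer ones with a median of 0.16. Spearman's rho between transcript length and this difference was -0.36 over the 78 members, which share their libraries, and -0.29 over the 14917 genes with a known length, too few of those tested for a check over all genes.

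Oligodendrocyte markers (10 of 10 tested) summed to 11704 to 14152 CPM in nigral PBS libraries, 13455 to 15557 in 6-OHDA and 12612 to 17148 in TUG libraries. Their part in the member values was not tested.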
